A study of Homo sapiens with 27 samples.

Results

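Control libraries of 22Rv1 and LNCaP95 were compared with each other, to describe how 2 cell models of castration-resistant prostate cancer differ at baseline in gene expression and in the places where their transcripts end. The comparison took in every library titled as a control of either line, which gave 6 of the 27 libraries of the series, 3 from 22Rv1 and 3 from LNCaP95. Each library was made by Poly(A)-ClickSeq (PAC-seq), which sequences across the point where the poly(A) tail joins the transcript, so that a read marks a 3′ end. 22Rv1 is a hormone-insensitive prostate cancer line derived from a xenograft, and LNCaP95 is a hormone-insensitive derivative of LNCaP. All 6 cultures had been infected with lentivirus carrying the control shRNA (CTRL sh). The labels give puromycin selection at 2 µg/mL for 22Rv1 and 1 µg/mL for the lines not named, which by elimination include LNCaP95, and cells were kept for 72 h after plating at 500000 per well. LNCaP95 was grown in RPMI 1640 without phenol red and 22Rv1 in RPMI 1640, each with serum, so effects of line, medium and selection cannot be told apart. The methods call the 3 libraries of a group biological replicates (BR1 to BR3) without saying that they came from separate cultures, so p-values measure the spread between these samples.

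Most human mRNAs are cleaved a short distance beyond a hexamer, AAUAAA or a close variant, that is bound by the cleavage and polyadenylation specificity factor (CPSF), and the new end receives a poly(A) tail. A gene can hold further signals in its introns, in its coding exons or beyond its annotated end. An intronic end gives a shorter transcript that may encode a truncated protein, and an end beyond the gene gives a longer one. Androgen-driven genes such as KLK3 (prostate-specific antigen) mark luminal prostate cells, and prostate cancers that regrow after androgen deprivation often keep some of them active.

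The authors counted the reads of each gene in 4 kinds of region, namely its 3′ UTR with 300 further bases, its introns, its coding sequence (CDS) and a stretch of 10 kb past its end. A ratio of any region to 3′ UTR reads therefore has the reads at the annotated end as its denominator. Stretches of sequence before the annotated ends of 7 genes on which the results turn are shown, with the DNA form of the hexamer, AATAAA or ATTAAA, in capitals. They were read from the GRCh37 genome 5′ to 3′ on the strand of the gene. The 7 were chosen among genes that hold a hexamer, which began 17 to 29 bases before the annotated end. The annotated end is here the outermost 3′ UTR end over the transcripts of a gene, and hexamers at its other ends were not searched. Of other genes described below, PPM1G, PCF11, GPI, LDHA and FAF1 held neither form within 50 bases of that end. In IFRD2 and TIMM13 the hexamer began 34 and 44 bases before it. GPI does hold AATAAA elsewhere, since the morpholino with which the paper masked its canonical poly(A) site is complementary to a stretch with that hexamer.
MAGED1, chrX:51645413-51645442, plus strand: tttggtatcagaAATAAAcattgaaattgc
TSC22D1, chr13:45007665-45007694, minus strand: ttgtcaactttcAATAAAgcatataaatgt
CCND1, chr11:69469210-69469239, plus strand: tgaaagtctagaAATAAAactggtaaaacc
ALDOA, chr16:30081701-30081730, plus strand: ggcacactgccaAATAAAcagctatttaag
PGK1, chrX:77384760-77384789, plus strand: gtatatagatatATTAAAatgtaaatggtg
KLK3, chr19:51363987-51364016, plus strand: agaactcacagaAATAAAgagctgttatac
PSMC3IP, chr17:40724333-40724362, minus strand: tggtatttagaaaAATAAAaaatttccaat

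The 22Rv1 libraries held 3452413, 5762032 and 8470629 reads over the 4 tables, and the LNCaP95 libraries 7639445 to 9100287. The 10 kb table was the thinnest, with 170330 to 389029 reads per library. 22Rv1 BR1 was the shallowest library and stood apart from BR2 and BR3: over 8761 genes its log-scale 3′ UTR values correlated with theirs at 0.936 and 0.942, against 0.982 between them and 0.974 to 0.981 within LNCaP95. All 10 defining markers of luminal prostate cells, among them KRT8, KRT18, KRT19, HOXB13, FOXA1, FOLH1, KLK3 and TMPRSS2, were above 2 CPM (counts per library size, scaled to a common total by edgeR) in both lines. Their summed level was 3324 to 3743 CPM in 22Rv1 and 8891 to 9800 CPM in LNCaP95. None of 4 basal markers passed 2 CPM in either line, and KRT5 had no read in either. None of 5 markers of immune cells passed it.

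To determine how far the lines differed at annotated ends, each gene in the 3′ UTR table was tested with the quasi-likelihood test of edgeR. Of 11551 genes tested, 3098 were higher and 2857 lower in 22Rv1 at an adjusted p under 0.05, which is 51.6% of all genes. The CPM of the libraries did not overlap between lines for 58.9% of genes. A difference of over 8-fold was found for 752 genes higher and 390 genes lower in 22Rv1, and the median log2 difference (22Rv1 minus LNCaP95) over all genes was 0.02. With calls this frequent, the size of each difference is given beside its call.

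Several genes with many reads in one line had none in the other. ALB, which encodes serum albumin, was at 234, 357 and 306 CPM in the 3 libraries of 22Rv1 and had 0 reads in all 3 of LNCaP95. Against a floor of 3 reads per library this was at least 505-fold higher (edgeR adjusted p = 1.37e-09). TIMP1, an inhibitor of matrix metalloproteinases, was at least 384-fold higher in 22Rv1, the calcium-binding protein gene S100A6 at least 236-fold, FAM213A at least 223-fold, the homeobox gene POU6F1 at least 197-fold and the membrane protein gene STOM at least 163-fold, each with 0 reads in LNCaP95. MT1E, a metallothionein, was at least 202-fold higher, with near-identical family members that can share its reads. S100A10 had 735, 2399 and 3010 reads in 22Rv1 and 1 in all of LNCaP95, a ratio of 9147 with a 95% counting interval from 1641 to 361353. CLU, an extracellular chaperone, had 787, 1655 and 2804 reads against 1, a ratio of 7810 (interval 1401 to 308547).

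In the other direction, PIK3CD, the delta catalytic subunit of phosphoinositide 3-kinase, had 0, 0 and 1 reads in 22Rv1 and 1882, 1496 and 2016 in LNCaP95, where its level was 345, 308 and 408 CPM. The ratio of LNCaP95 to 22Rv1 was 3623 (95% counting interval 650 to 143129). Levels without overlap between the lines were a condition for naming this gene. PTPRM, a receptor tyrosine phosphatase, was at least 63.1-fold lower in 22Rv1, PXDN (peroxidasin) at least 62.3-fold, the neuronal adhesion gene NLGN4X at least 55.2-fold, the homeobox genes IRX4 and BARX2 at least 46.3-fold and 42.6-fold, and DIO3, which inactivates thyroid hormone, at least 39.7-fold. All had 0 reads in 22Rv1, as did HP (haptoglobin), its close copy HPR and FUT3, whose reads cannot be placed with certainty among near-identical genes.

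Luminal and androgen-regulated genes differed in both directions. Of 24 genes on the list, all tested, 8 were higher and 12 lower in 22Rv1, against 26.8% and 24.7% of all genes, and the list's median log2 difference was -0.38. KLK3 was at 34.4, 31.5 and 46.6 CPM in 22Rv1 and at 4271, 3849 and 4343 CPM in LNCaP95, which is 37.5 ± 8.02 against 4154 ± 267 (SD, n = 3). The log2 difference was -6.77 with an SE of 0.20 (edgeR adjusted p = 6.15e-11). TMPRSS2, the androgen-driven protease gene that is often fused to ERG in prostate cancer, was at 5.09, 16.3 and 12.3 CPM against 203, 251 and 204 (log2 -4.19, SE 0.28, edgeR adjusted p = 4.56e-08). TRPM8, a cold-sensing channel, had 0, 1 and 0 reads in 22Rv1 and 604, 652 and 538 in LNCaP95. For these 3 genes no library of 22Rv1 came near one of LNCaP95.

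FOLH1, which encodes prostate-specific membrane antigen, was at 89.1, 169.9 and 181 CPM in 22Rv1 and at 954, 1085 and 997 CPM in LNCaP95 (log2 -2.77, edgeR adjusted p = 3.41e-07). KLK2 and ACPP, a kallikrein and prostatic acid phosphatase, fell by 1.89 and 1.60 on the log2 scale, and the luminal keratin KRT8 fell by 1.25. Other members were higher in 22Rv1. KRT19, another simple keratin, was at 114, 122 and 103 CPM against 30.8, 21.8 and 23.7 (log2 2.15, SE 0.20, edgeR adjusted p = 9.98e-07), and the channel gene TRPM4 was at 45.2, 40.4 and 49.3 CPM against 14.7, 12.1 and 13.2 (log2 1.75). SPDEF, an epithelial transcription factor, and CREB3L4 were higher by 0.73 and 0.96. HOXB13, which marks the prostate lineage, differed by -0.26 and the androgen target FKBP5 by 0.18, and neither passed the test. FKBP5 passed without 22Rv1 BR1 (log2 0.33, edgeR adjusted p = 0.0367), as did KRT18 (log2 -0.46, edgeR adjusted p = 0.00831).

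**Figure D1:**
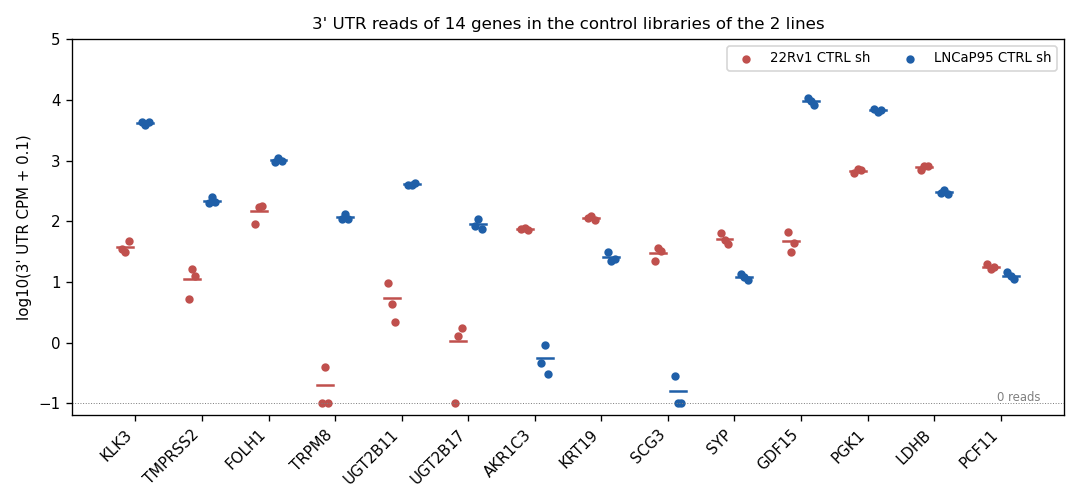
3′ UTR reads of 14 genes as log10(CPM + 0.1), with 1 point per control library (red, 22Rv1; blue, LNCaP95; 3 each) and a short line at the mean of each line; the dotted line marks 0 reads. KLK3, TMPRSS2 and TRPM8 lie far lower in 22Rv1, and AKR1C3 and KRT19 lie higher.

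Genes of androgen synthesis and removal were also found in both directions. Of 22 genes on the list, 15 were tested, of which 5 were higher and 7 lower in 22Rv1, against 26.8% and 24.7% of all genes. The median log2 difference was -0.36, and -0.20 without 22Rv1 BR1, -0.65 without 22Rv1 BR2, -0.66 without 22Rv1 BR3 and -0.68 without LNCaP95 BR1. The UDP-glucuronosyltransferases inactivate androgens by conjugation. UGT2B11 was at 9.54, 4.16 and 2.08 CPM in 22Rv1 and at 400.4, 395 and 430.1 CPM in LNCaP95 (log2 -6.57, SE 0.34, edgeR adjusted p = 4.45e-09). UGT2B17 had 0, 4 and 8 reads against 456, 537 and 368 (log2 -6.18, SE 0.37, edgeR adjusted p = 1.95e-08), and UGT2B28 fell by 4.03. These genes are near-identical in sequence, and how reads were divided among them cannot be read from the tables. AKR1C3, which makes testosterone from androstenedione, went the other way, at 75.7, 78.7 and 71.3 CPM in 22Rv1 and 0.367, 0.822 and 0.202 CPM in LNCaP95 (log2 7.26, SE 0.34, edgeR adjusted p = 1.81e-09). Only 7 reads stood behind the LNCaP95 value, and without LNCaP95 BR2 the log2 difference was 7.87. SRD5A3, a steroid 5-alpha-reductase family member, was at 61.1, 63.3 and 65.5 CPM against 177, 164 and 177 (log2 -1.45).

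Neuroendocrine and neuronal genes that passed the test were higher in 22Rv1. Of 15 genes, 8 passed the filter on low counts, and 7 of these were higher and 0 lower in 22Rv1, against 26.8% and 24.7% of all genes. The median log2 difference was 1.61, against 0.02 for all genes. The list also had 7 higher and 0 lower with RLE factors and without TMM factors. SYP, which encodes the vesicle protein synaptophysin, was at 63.6, 49.3 and 41.8 CPM against 13.4, 11.7 and 10.7 (log2 2.09, SE 0.23, edgeR adjusted p = 6.73e-06). SCG3, a secretogranin, had 34, 121 and 155 reads against 1 in all of LNCaP95. Of 4 defining markers of neuroendocrine cells, 2 were above 2 CPM in 22Rv1, SYP and CHGA, which had 4, 8 and 18 reads there (2.55, 2.38 and 3.74 CPM) and none in LNCaP95. INSM1 had no read in 22Rv1. The count fell to 4 without 22Rv1 BR2 and to 4 without 22Rv1 BR3, and only the calls of SYP and SCG3 held in every fit that left out 1 library. In bulk RNA, fewer cells of a type and less RNA per cell cannot be told apart.

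Of the other cell-type lists, the basal list had 4 of 15 genes tested, 1 higher and 2 lower (26.8% and 24.7% of all genes), with the growth factor receptor gene EGFR at 122, 139.6 and 127 CPM in 22Rv1 and 317, 327 and 296 CPM in LNCaP95 (log2 -1.27). The higher gene, CAV1 (caveolin-1), had 9, 11 and 23 reads in 22Rv1 and 0 in LNCaP95, and fell below the filter on low counts without 22Rv1 BR1, BR2 or BR3. The stromal and mesenchymal list had 7 of 15 tested, 2 higher and 3 lower (median log2 -0.71, and -0.36 without 22Rv1 BR3). CDH2 (N-cadherin) had 29, 54 and 93 reads in 22Rv1 and 0 in LNCaP95, at least 30.3-fold higher, and TWIST1, a transcription factor of mesenchymal cells, had 52, 165 and 253 reads against 0, 0 and 1. FN1 (fibronectin), COL1A1 (a collagen chain) and VIM (vimentin) were lower in 22Rv1, by -2.71, -2.52 and -0.71 on the log2 scale. Of 12 genes of blood and immune cells, 1 was tested and did not pass.

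Of the 13 gene lists, glycolysis had the lowest median in the 3′ UTR table. Of 18 genes, all tested, 13 were lower and 2 higher in 22Rv1, against 24.7% and 26.8% of all genes, and the list's median log2 difference was -1.62. PGK1 (phosphoglycerate kinase) was at 626, 716 and 693 CPM in 22Rv1 and 7179.6, 6415 and 6768 CPM in LNCaP95 (log2 -3.32, SE 0.13, edgeR adjusted p = 4.49e-10). ENO1 (enolase) was at 868, 387 and 575 CPM against 5525, 4078 and 4004 (log2 -2.90), and PFKP, the platelet-type phosphofructokinase, at 6.36, 2.67 and 4.16 CPM against 114, 126 and 118 (log2 -4.86). In each of these genes the highest 22Rv1 library lay below the lowest LNCaP95 library. The glucose transporter gene SLC2A1 fell by 1.71, the first kinase of the pathway, HK2, by 2.13, the aldolases ALDOA and ALDOC by 1.82 and 2.60, GPI by 1.81 and PKM by 1.05. The 2 lactate dehydrogenase subunits moved in opposite directions. LDHA was at 1274, 2005 and 1554 CPM in 22Rv1 and 5169, 6169 and 5212 CPM in LNCaP95 (log2 -1.77), and LDHB was at 713, 813 and 813 CPM against 295, 332 and 281 (log2 1.36, edgeR adjusted p = 4.44e-06). In the fits that left out 1 library, 12 of the 13 lower calls held in all 6. The call of GAPDH (log2 -0.74) was lost without 22Rv1 BR2, 22Rv1 BR3, LNCaP95 BR1 or LNCaP95 BR3, with edgeR adjusted p from 0.0726 to 0.0836.

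**Figure D2:**
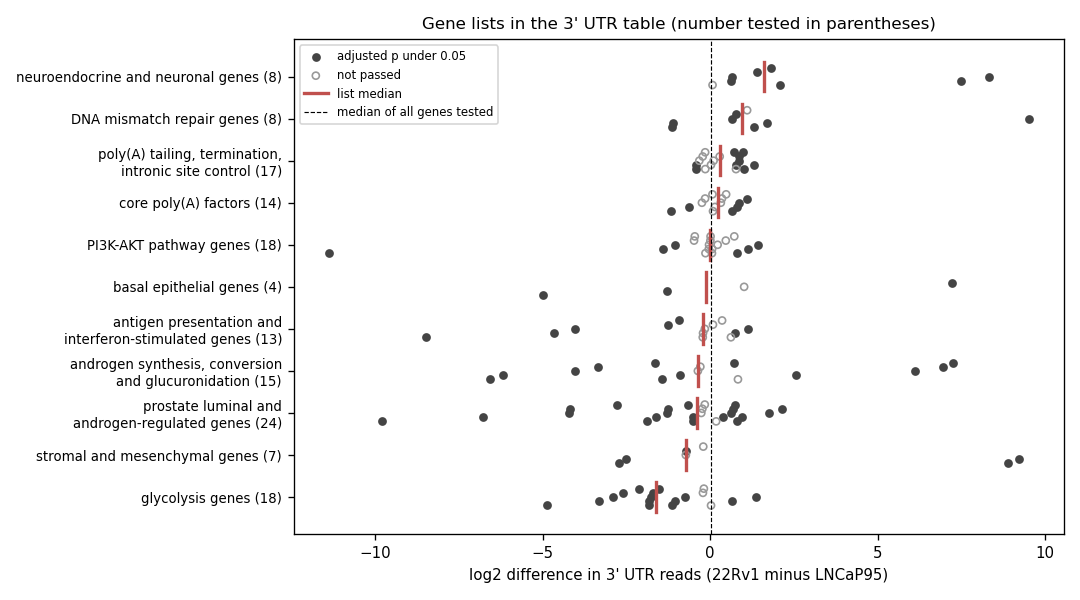
Log2 difference in 3′ UTR reads (22Rv1 minus LNCaP95) of each tested gene of 11 lists with at least 4 genes tested. The list of stress response, cell-cycle arrest and apoptosis, with 16 genes tested, is not drawn. Filled points passed at an adjusted p under 0.05 and open points did not. Red bars are list medians and the dashed line is the median of all genes tested. The glycolysis median lies at -1.62 and the neuroendocrine and neuronal median at 1.61.

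Of 16 tested genes of a list of stress response, cell-cycle arrest and apoptosis, 10 were lower and 2 higher in 22Rv1 (median log2 -0.90). Of all genes, 24.7% were lower and 26.8% higher. In every fit that left out 1 library, 7 of the lower calls of the list and 1 of its higher ones held. GDF15, a stress-induced secreted factor, was at 66.8, 31.2 and 43.1 CPM in 22Rv1 and 10765, 9793 and 8366 CPM in LNCaP95 (log2 -7.72, SE 0.27, edgeR adjusted p = 2.22e-10). CDKN1A, which encodes the cell-cycle inhibitor p21, was at 26.1, 31.2 and 40.6 CPM against 79.5, 90.4 and 123 (log2 -1.55, edgeR adjusted p = 6.59e-05). The death receptor genes FAS and TNFRSF10B fell by 2.68 and 2.1. BAX, which promotes apoptosis, was higher by 1.21 (edgeR adjusted p = 0.001), and the ubiquitin ligase gene MDM2 differed by -0.13 without passing (edgeR adjusted p = 0.545).

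Of 18 tested genes of the PI3K-AKT pathway, 3 were higher and 3 lower, against 26.8% and 24.7% of all genes (median log2 0.01). The medians in the fits that left out 1 library lay on both sides of 0, from -0.11 without 22Rv1 BR2 to 0.09 without LNCaP95 BR3. Of the higher calls, INPP4B, a phosphoinositide phosphatase gene, was lost without 22Rv1 BR2, 22Rv1 BR3 or LNCaP95 BR3, and the kinase gene PDPK1 without LNCaP95 BR2. PIK3CD was the gene described above with 1 read in 22Rv1. PIK3CA, the gene of the alpha catalytic subunit, was higher by 1.42, while the regulatory subunit gene PIK3R1 fell by 1.42 and MTOR, the kinase downstream, by 1.06.

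Of 8 genes of DNA mismatch repair, 5 were higher and 2 lower in 22Rv1 (median log2 0.94), against 26.8% and 24.7% of all genes. EXO1, the exonuclease of the pathway, was higher by 1.70 and MSH6 by 0.77, and PMS2 was lower, at -1.14.

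The class I antigen presentation genes HLA-B, HLA-C and B2M were lower in 22Rv1. Of 13 tested genes of antigen presentation and the interferon response, 2 were higher and 5 lower, against 26.8% and 24.7% of all genes. The list's median log2 difference was -0.21, and ran from -0.62 without 22Rv1 BR2 to -0.10 without 22Rv1 BR1 and -0.12 without LNCaP95 BR2. HLA-C fell by 1.26. B2M, the light chain of class I molecules, was at 167, 269 and 256 CPM against 415, 493 and 413 (log2 -0.92, edgeR adjusted p = 0.000989). HLA genes are close copies that differ between people and lines, so their reads are uncertain. Interferon-stimulated genes did not share a direction: IFI6 fell by 4.67, and ISG15 was at 1061, 750.4 and 619 CPM against 394, 301 and 402 (log2 1.15, edgeR adjusted p = 0.000296).

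The genes of the poly(A) machinery itself differed in both directions. Of 14 core factors, all tested, 4 were higher and 2 lower in 22Rv1 (median log2 0.23, and 0.13 without LNCaP95 BR3), against 26.8% and 24.7% of all genes. CPSF6, a subunit of cleavage factor I, was at 108, 95.7 and 87.1 CPM against 41.7, 52.6 and 40.7 (log2 1.10, edgeR adjusted p = 0.000233). CPSF1, the gene whose knockdown the series studied, was at 199, 132 and 143 CPM in 22Rv1 and 96.6, 64.8 and 108 CPM in LNCaP95, without overlap (log2 0.80, SE 0.22, edgeR adjusted p = 0.00773). CSTF1, a subunit of the cleavage stimulation factor, was at 17.2, 24.4 and 16.8 CPM against 39.7, 45.6 and 46.3 (log2 -1.16, edgeR adjusted p = 0.000632). The other lower call, FIP1L1 (log2 -0.62), was lost without 22Rv1 BR2, LNCaP95 BR1 or LNCaP95 BR2 (edgeR adjusted p of 0.0942, 0.0944 and 0.058). CPSF4 (log2 0.66) was lost without 22Rv1 BR1, 22Rv1 BR3, LNCaP95 BR1 or LNCaP95 BR2 (0.0534 to 0.148).

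Of 17 genes of poly(A) tailing, termination and intronic site control, 7 were higher and 2 lower, against 26.8% and 24.7% of all genes. The list's median log2 difference was 0.29, and 0.15 without 22Rv1 BR3 and 0.48 without 22Rv1 BR1. SCAF4, which restrains early ends, was higher by 1.32, the torpedo exonuclease XRN2 by 1.02, the scaffold SYMPK by 0.97 and the cytoplasmic poly(A)-binding protein PABPC1 by 0.77. The 2 lower genes, SNRPC and PAPOLA, had adjusted p of 0.0417 and 0.0476 by edgeR and were not lower under RLE scaling. They gave no lower call without 22Rv1 BR2, 22Rv1 BR3, LNCaP95 BR1 or LNCaP95 BR3.

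To determine whether the lines placed their transcript ends in different kinds of region, each region's share of the reads was computed per library. The 10 kb regions took 4.93%, 4.46% and 4.59% of reads in 22Rv1 and 3.63%, 3.48% and 3.75% in LNCaP95, or 4.66% ± 0.246 against 3.62% ± 0.135 (SD, n = 3). All 3 libraries of 22Rv1 lay above those of LNCaP95, and the two-sided exact permutation test gave p = 0.1, the smallest that 20 splits of 6 libraries allow (adjusted p = 0.4 over 4 regions). When the share was computed for each of 5510 genes, its median over genes was 0.964% ± 0.0527 in 22Rv1 and 0.675% ± 0.0275 in LNCaP95 (SD, n = 3), also without overlap. The 3′ UTR share was 55.1% ± 4.45 against 58.2% ± 1.90, the intron share 24.2% against 23.6% and the CDS share 15.98% against 14.6%, with p of 0.4, 0.7 and 0.4 in the exact permutation test. Single genes took a large part of the reads of some tables, since MTRNR2L12 alone took 10.2% to 21.0% of intron reads, and WFDC11, whose region holds a processed pseudogene of RPS2, took 8.19% to 12.6% of 10 kb reads.

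Over all genes, the intron table alone had 2169 genes higher and 2217 lower in 22Rv1 of 12280 tested (35.7%), and the CPM of the libraries did not overlap between lines for 45.8%. The genes called in both the intron and the 3′ UTR table numbered 2408, which were 51.6% of the 3′ UTR calls and 67.2% of the intron calls among genes tested in both, and 2274 of the 2408 went in the same direction. The ratio of intron to 3′ UTR reads was then fitted for 9275 genes. It was higher in 22Rv1 for 549 (5.92%) and lower for 859 (9.26%), which is 15.2% of genes. With summed library sizes the counts were 346 and 448, and the median log2 ratio over all genes was 0.04 in place of -0.08. Most of these genes also differed at the 3′ UTR, the denominator of the ratio: 403 of the 549 were lower there and 661 of the 859 higher. Of all genes tested at the 3′ UTR, 24.7% were lower and 26.8% higher. Since these reads enter the ratio, an excess in this direction was partly fixed by the selection. The count of 1408 fell to 900 without 22Rv1 BR3.

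Among the 670 genes that met the rule for naming genes, those with the largest ratio differences were described. They included a few in which intronic ends made up much of the total. In MAGED1, an adaptor of the MAGE family, intron reads were 58.2%, 35.3% and 41.3% of intron and 3′ UTR reads in 22Rv1 and 3.32%, 3.00% and 2.79% in LNCaP95 (log2 ratio 4.52, SE 0.32, edgeR adjusted p = 9.67e-07). Both sides moved, with the introns higher by 3.28 and the 3′ UTR, whose hexamer at the outermost end is printed above, lower by -1.23. A processed pseudogene on the same strand ends inside the counted intron region of MAGED1. In TSC22D1, a leucine-zipper transcriptional regulator, the share was 70.8%, 33.6% and 38.6% against 6.08%, 4.68% and 4.09% (log2 ratio 3.91, SE 0.35, edgeR adjusted p = 7.65e-06). Here intron reads did not pass (log2 0.14, edgeR adjusted p = 0.702) while the 3′ UTR fell by 3.72, and a protein-coding transcript of TSC22D1 ends within the intron region. EDARADD, an adaptor of the ectodysplasin receptor, was at 36.2% against 3.09%, and the autophagy gene MAP1LC3A at 34.7% against 0.938%.

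Smaller shares also rose. ALDOA, a glycolytic aldolase, had 2.39% of its reads in introns in 22Rv1 and 0.101% in LNCaP95 (log2 ratio 4.15, SE 0.55, edgeR adjusted p = 0.000133, and 5.57 without LNCaP95 BR1, which held 14 of the 18 intron reads of that line). The intron region of ALDOA holds 4 ends of ENSG00000285043, a protein-coding gene on the same strand, and 2 annotated ends of its own. ZNF511 was at 5.22% against 0.308%, and its intron region overlaps the genes PRAP1 and ZNF511-PRAP1 on the same strand. ENDOG, a mitochondrial nuclease gene, and APLN, which encodes apelin, had 1.09% and 2.31% in 22Rv1 and no intron read in LNCaP95. The call of APLN was lost without LNCaP95 BR1, BR2 or BR3 (edgeR adjusted p of 0.0545, 0.0607 and 0.0537).

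Among genes with a lower ratio in 22Rv1, PPM1G, a protein phosphatase, had 42.4%, 51.3% and 40.9% of reads in introns against 89.5%, 91.0% and 91.3% (log2 ratio -3.70, edgeR adjusted p = 8.23e-06). Its intron region contains FTH1P3, a processed pseudogene of the ferritin heavy chain on the same strand. In MSH6 the share was 15.6%, 8.06% and 4.14% against 48.8%, 41.5% and 52.3% (log2 ratio -3.50, edgeR adjusted p = 2.07e-05), with the pseudogene NME2P2 in the region. EBNA1BP2, a ribosome biogenesis gene with 4 annotated ends of its own in introns, was at 1.08%, 2.1% and 1.94% against 30.04%, 27.4% and 26.5% (log2 ratio -4.47, edgeR adjusted p = 4.02e-06). In all 3 genes no library of one line overlapped the other. The share was 0.433% against 11.1% in PSRC1, 0.183% against 22.1% in THEM6, 0.651% against 10.8% in DDT and 0.844% against 6.00% in SELM.

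In CCND1, which encodes cyclin D1, the denominator moved. Its 3′ UTR was at 11432, 8036 and 8201 CPM in 22Rv1 and 861, 725 and 849 CPM in LNCaP95, or 9223 ± 1915 against 811.5 ± 75.3 (log2 3.51, SE 0.17, edgeR adjusted p = 2.26e-09). Intron reads of CCND1 did not pass (log2 -0.08, edgeR adjusted p = 0.892), and the ratio was lower by -3.57 (SE 0.46, edgeR adjusted p = 0.000107).

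**Figure D3:**
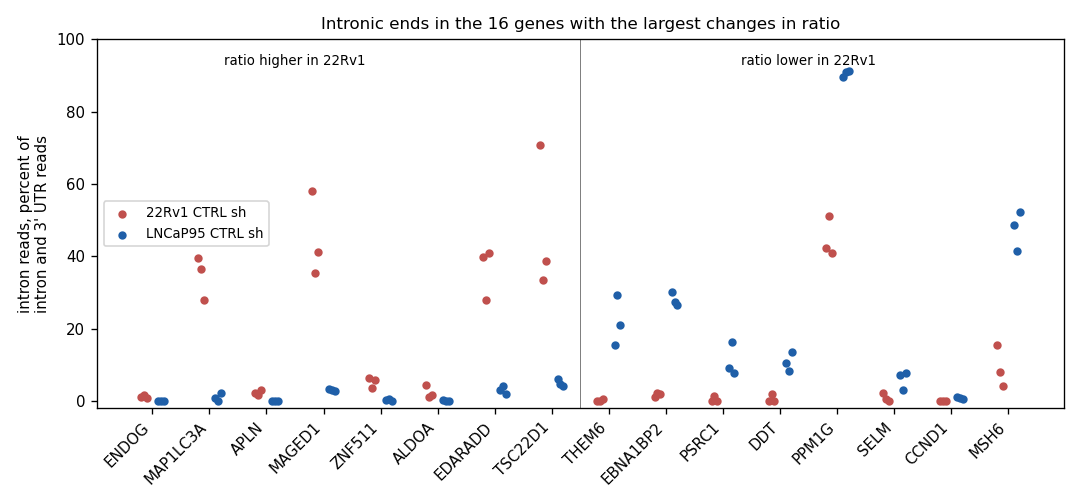
Intron reads as a percent of intron and 3′ UTR reads in 16 genes, 8 higher (left of the line) and 8 lower in 22Rv1. They had the largest differences in ratio among the 670 genes that met the rule for naming genes. Each control library has 1 point (22Rv1 in red, LNCaP95 in blue). MAGED1 spans 35.3% to 58.2% in 22Rv1 against 2.79% to 3.32% in LNCaP95, and PPM1G spans 40.9% to 51.3% against 89.5% to 91.3%.

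Among genes of the lists, 3 of 13 core poly(A) factors had a lower intron ratio in 22Rv1 and 0 a higher one, against 9.26% and 5.92% of all genes fitted. The list median was -0.23 on the log2 scale, against -0.08 for all genes. PCF11, a termination factor of cleavage factor II, had 30.1, 36.7 and 36.2 CPM in introns in 22Rv1 and 198, 223 and 182 CPM in LNCaP95. The ratio was lower by -3.02 (SE 0.32, edgeR adjusted p = 2.04e-05), while the PCF11 3′ UTR did not pass (log2 0.48, edgeR adjusted p = 0.142). The intron region holds the end of a lncRNA of the same strand, ENSG00000254676. WDR33, the subunit that reads the hexamer with CPSF4, had 45.6, 50.4 and 61.6 CPM in introns against 163, 194 and 124 (log2 ratio -1.98, edgeR adjusted p = 0.00219). The call of CPSF6 (log2 ratio -1.18, edgeR adjusted p = 0.0136) was lost without LNCaP95 BR3 (0.055) and with summed library sizes (0.114).

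Of 22 luminal and androgen-regulated genes fitted, 4 had a higher and 4 a lower intron ratio, against 5.92% and 9.26% of all genes fitted. KRT19 was higher, by 2.32, and TRPM4, CREB3L4 and KLK4 were lower, by -2.13, -1.71 and -1.35. The calls of FOLH1, NDRG1 and FOXA1 were each lost in a fit that left out 1 library, and without LNCaP95 BR1 the list had 2 higher and 3 lower. SYP introns were at 60.2, 79.4 and 68.6 CPM in 22Rv1 against 7.84, 2.77 and 2.35, a larger difference than at its 3′ UTR (log2 ratio 1.96, edgeR adjusted p = 0.0103, and 2.59 without LNCaP95 BR1).

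Coding exons gave few differences in ratio. The CDS table itself had 874 genes higher and 847 lower of 4977 tested (34.6%), with no overlap of CPM between lines for 45%, and 1208 of the 1224 genes called in both tables went the same way as at the 3′ UTR. The ratio of CDS to 3′ UTR was higher for 14 (0.302%) and lower for 21 (0.453%) of 4635 genes, 0.755% together, and the count was 15 to 27 in the fits that left out 1 library. It was 20 without 22Rv1 BR1, 16 without 22Rv1 BR3, 22 without LNCaP95 BR1 and 15 without LNCaP95 BR2. RPGRIP1L, a gene of the ciliary transition zone, had 62.1%, 55.0% and 55.1% of its CDS and 3′ UTR reads in the CDS in 22Rv1 and 7.35%, 7.59% and 8.47% in LNCaP95 (log2 ratio 3.81, edgeR adjusted p = 0.000244). Its CDS region holds 3 annotated ends of its own protein-coding transcripts. IDI1, an enzyme of isoprenoid synthesis, went the other way, with means of 3.99% against 28.2% (edgeR adjusted p = 0.00069).

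The 10 kb regions held the fewest reads. Of 13826 regions tested, 1009 were higher and 840 lower in 22Rv1 (7.3% and 6.08%, 13.4% together). With summed library sizes 1465 were higher and 523 lower, and the 1849 calls fell to 1230 without 22Rv1 BR3 and to 1173 without LNCaP95 BR2. Set against the 3′ UTR, 10 kb reads were relatively higher for 480 and lower for 546 of 9566 genes (5.02% and 5.71%, 10.7% together). The majority direction of these calls depended on the scaling, the filter and the libraries used. With each table on its own scale the median log2 ratio over all genes was 0.03 and 46.8% of the calls were higher. With summed library sizes, which keep the larger 10 kb share of 22Rv1, it was 0.45 and 67.3% of the calls were higher, 688 against 335. Higher calls also outnumbered lower ones with a filter of 2 CPM in every library (460 against 384), with 9 control libraries in the fit (647 against 611) and without 22Rv1 BR1 (473 against 430). The count of 1026 fell to 626 without 22Rv1 BR2 and to 610 without 22Rv1 BR3. Of the 480 higher ratios, 256 had a lower 3′ UTR, and of the 546 lower ones 433 had a higher 3′ UTR. Over all genes tested at the 3′ UTR, 24.7% were lower and 26.8% higher. The 3′ UTR is the denominator here too, so the selection partly fixed this excess.

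The 6 genes described next had some of the largest ratio differences among genes that met the rule for naming. Each had no 10 kb read in one of the lines. PSMC3IP, a cofactor of homologous recombination whose 3′ UTR hexamer is printed above, had 0, 0 and 0 reads in its 10 kb region in 22Rv1 and 34, 27 and 29 in LNCaP95, at least 7.92-fold lower (edgeR adjusted p of the ratio = 3.47e-06). The region, chr17:40714034-40724033 on the minus strand, holds no other annotated end, and took 14.2% of PSMC3IP reads there and in the 3′ UTR in LNCaP95. IFRD2 had 9, 14 and 18 reads in LNCaP95 and none in 22Rv1, at least 3.64-fold lower, and MYL6, a myosin light chain, had 7, 3 and 9, at least 1.63-fold lower. In the other direction, FAF1, a FAS-associated factor, had 11, 22 and 21 reads in 22Rv1 and none in LNCaP95 (at least 7.15-fold higher). Its region holds an annotated protein-coding end of its own and the end of a noncoding RNA of the same strand, RP5-850O15.4. SMARCA5, a chromatin remodelling ATPase, had 5, 16 and 23 reads against none (at least 5.42-fold), in a region that also holds the pseudogene GUSBP5, and the mitochondrial import gene TIMM13 had 4, 6 and 20 (at least 3.51-fold). In the line with reads, these 6 genes had 3 to 34 of them per library.

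In the glycolysis list, whose 3′ UTR reads were lower in 22Rv1, 7 of 18 genes had a higher 10 kb ratio and 0 a lower one. Of all genes fitted, 5.02% had a higher and 5.71% a lower ratio. The list median was 1.49 on the log2 scale, against 0.03 for all genes. The count of higher ratios in the list was 7 to 9 under the alternative scalings, with medians of 1.46 to 1.99, and 5 to 7 when 1 library was left out. The 10 kb reads themselves did not share a direction, with 2 higher and 1 lower of the 18, against 7.3% and 6.08% of all regions tested. PGK1 had 26, 25 and 70 reads in its 10 kb region in 22Rv1 and 12, 26 and 16 in LNCaP95, or 134, 105 and 198 CPM against 36.5, 94.8 and 48.4 (log2 1.31, edgeR adjusted p = 0.0192). Its ratio was higher by 4.65 (SE 0.53, edgeR adjusted p = 2.61e-08). For ALDOC and GPI the 10 kb reads did not pass and the ratio was higher by 2.16 and 2.08, and the region of GPI overlaps PDCD2L on the same strand. The ratio of LDHA, higher by 3.43 on 2 to 19 reads per library in 22Rv1, was lost without 22Rv1 BR3 (log2 2.57, edgeR adjusted p = 0.133). The calls of HK1, ALDOA and TPI1 were also each lost in a fit that left out 1 library.

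The intron ratio of glycolysis genes was higher for 5 of 14 and lower for 0, against 5.92% and 9.26% of all genes fitted. The median log2 was 0.74, against -0.08, but the calls rested on single libraries. The intron ratio was higher for 2 without 22Rv1 BR2, for 2 without 22Rv1 BR3 and for 3 without LNCaP95 BR1 or LNCaP95 BR2, and ALDOA alone was called in every such fit.

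Of 22 luminal genes, 4 had a higher and 2 a lower 10 kb ratio, against 5.02% and 5.71% of all genes fitted. ACPP had 10, 31 and 18 reads beyond the gene in 22Rv1 and 6, 4 and 2 in LNCaP95, while its 3′ UTR was lower (log2 ratio 4.24, edgeR adjusted p = 0.000922). FOLH1 had 345.8, 531.8 and 642 CPM in its 10 kb region against 285.6, 569 and 565.6, which overlapped, so that its ratio was higher by 2.96 (edgeR adjusted p = 7.69e-06) with the lower 3′ UTR. The call of KLK3, which had 1, 2 and 13 reads there in 22Rv1, was lost without 22Rv1 BR3 (log2 1.32 in place of 2.43, edgeR adjusted p = 0.591).

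Differences at the 3′ UTR were unevenly spread over the chromosomes. The median log2 difference was 0.38 on chromosome 12, where 39.1% of 606 genes were higher and 12.4% lower in 22Rv1, and 0.38 on chromosome 8 (37.9% and 14.6% of 396). On chromosome 7 it was 0.29 (36.6% and 18.1% of 547). The X chromosome was lowest, at -0.36, with 19.3% of 429 genes higher and 38.2% lower, followed by chromosome 5 at -0.30 (16.7% and 36.2% of 503) and chromosome 17 at -0.28 (18.9% and 31.9% of 698). The range between the quartiles included 0 on every chromosome, and copy number was not measured in these files.

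**Figure D4:**
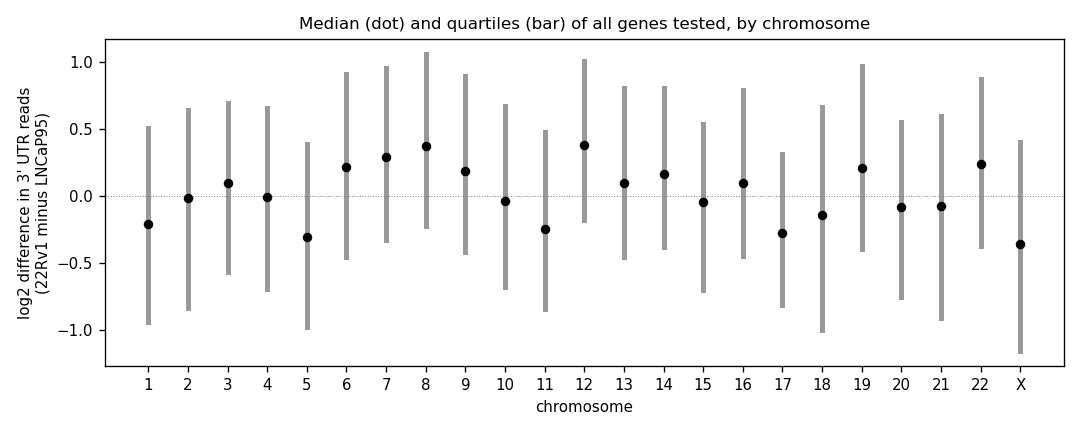
Log2 difference in 3′ UTR reads (22Rv1 minus LNCaP95) of all genes tested, by chromosome, with a dot at the median and a bar from the first to the third quartile. Medians run from -0.36 on X to 0.38 on chromosomes 8 and 12.

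The annotation around the genes with a changed ratio was described last. Only the outermost annotated 3′ UTR end of each gene was searched for a hexamer. AATAAA lay within 50 bases before that end, on the strand of the gene, in 62.2% of the 9275 genes of the intron fit, in 55.0% of those with a higher ratio in 22Rv1 and in 64.3% of those with a lower one. ATTAAA without AATAAA was found in a further 14.9%, and neither in 22.9%. Among genes matched to Gencode, an end of another gene on the same strand lay in the counted introns of 28.6% of all genes fitted, 42.0% of those with a higher and 33.9% of those with a lower ratio. The median length of counted introns was 37986 bases for all genes, 58752 for those with a higher and 47870 for those with a lower ratio. In the 10 kb fit, an annotated end of the gene itself lay in the region for 12.6% of all genes, 19.7% of those with a higher and 7.37% of those with a lower ratio, and an end of another gene for 18.5%, 21.8% and 27.3%. These shares are descriptions of the regions counted, and how many reads came from each of those ends was not tested.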

How the data were processed

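PAC-seq libraries of the control shRNA groups of 22Rv1 and LNCaP95 (3 each) were analysed from 4 tables of raw read counts per gene deposited by the authors, with replicates kept separate and no normalization. The authors mapped quality-filtered reads to GRCh37 with HISAT2 2.1.0 and assigned each read by its 3′ end, with featureCounts of Subread 2.0.3 and respecting strand, to the 3′ UTR plus 300 bases, introns, CDS or the 10 kb after the gene without same-strand exons. Reads from internal priming at A-rich sequence, from pseudogenes and from neighbouring genes can therefore enter the intron and 10 kb counts. Groups and replicate numbers came from the sample titles, and 0 columns were left unassigned.

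Counts of the 6 libraries were tested in R 4.3.3 by edgeR 4.0.16 (quasi-likelihood), with TMM factors per table, genes at a mean above 2 CPM, and Benjamini-Hochberg adjustment over all genes tested (threshold 0.05). A ratio to the 3′ UTR was tested as the interaction of region and line, with a term for each library. Shares of reads were compared by two-sided exact permutation tests over 20 splits (Python 3.11.15). Levels are edgeR CPM and cannot be compared between genes as concentrations. DESeq2 1.42.0, voom of limma 3.58.1, RLE factors, no TMM factors, summed library sizes, no low-count filter, all 9 control libraries, a replicate block and leaving out each library were the alternatives. The fits were tested on data simulated at a dispersion of 0.02, a value not estimated from these libraries. Changes were placed only in genes above a higher CPM minimum than the filter, so recovery among the lowest genes was not measured. Log2 changes of 1 were recovered for 89% of changed genes in the 3′ UTR table and 44% in the intron ratio. In the 10 kb table and the 10 kb ratio they were recovered for 12% and 7%. For log2 changes of 2 the same 4 values were 100%, 97%, 52% and 59.6%. The shares of genes called therefore cannot be compared between regions as measures of difference.

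Genes at 0 reads in a line are given against a floor of 3 reads per library. Molecular identifiers were not used, so these floors and the intervals cover counting error alone. Genes were named by a rule: in the 3′ UTR table the 10 highest and 10 lowest log2 differences among calls without overlap whose mean reached 30 CPM in the higher line, in the intron and 10 kb ratios 8 per direction and in the CDS ratio 3 per direction with at least 10 CPM in the region and the 3′ UTR, and the genes of 13 lists, of which some genes are not reported here. Y-linked genes, XIST and clone-based names were left out. The members and lists were chosen with earlier results of these data known, so no list is independent evidence of its direction. Annotated ends came from Gencode v44lift37, which held 88.8% of the symbols. Same-number libraries of the lines correlated in their deviations from the group means at 0.201, 0.430 and -0.234, so the replicate numbers were not taken to pair them.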

Additional observations from a re-analysis of the deposited data

How the results depend on the processing

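Leaving out 1 library at a time gave 4988 to 6480 calls in the 3′ UTR table (5955 with all libraries), 3557 to 4146 for introns, 1481 to 1621 for CDS and 1173 to 1765 for the 10 kb regions (1849 with all, 1230 without 22Rv1 BR3 and 1173 without LNCaP95 BR2). It gave 900 to 1321 for the intron ratio, 15 to 27 for the CDS ratio and 610 to 903 for the 10 kb ratio. The difference in share ranged from 0.900 to 1.14 points for the 10 kb regions, -4.43 to -0.516 for 3′ UTRs, 0.382 to 2.21 for CDS and -0.766 to 1.79 for introns, whose sign thus depended on the library. With summed library sizes the intron ratio had 794 calls in place of 1408, and the 10 kb regions 1465 higher and 523 lower, or 73.7% higher in place of 54.6%. The same scaling moved the median of all genes to 0.30 in the 10 kb table, 0.45 in the 10 kb ratio and 0.04 in the intron ratio. The CDS ratio had 35 calls, and 10 with summed library sizes, 3 of them higher in place of 14, 88 without the low-count filter, 56 with 9 control libraries and 88 by limma voom. The 10 kb share difference of 1.04 points was 0.289 points for the median share per gene, which was itself smaller (0.675% against 3.62% in LNCaP95). The cause of these changes was not tested. A replicate block, although the numbers were not taken as a pairing, gave 6050 calls for 3′ UTRs, 4291 for introns, 1673 for CDS, 1505 for 10 kb regions and 1380, 45 and 932 for the ratios. Of 3728 alternative values for 274 results on named and listed genes, 3504 kept direction and side of the threshold, 208 lost the call, 16 gained one and 0 reversed. DESeq2 called 5834, 3784, 1539 and 1389 genes in the 4 tables. The 10 kb regions held 170330 to 389029 reads per library, and a missing call there does not show equal levels.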
